A study of Mus musculus with 2 samples.

Results

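The genes described are *Gata1*, *Gata2*, *Gata3* and *Zfpm1*, 4 of the 28692 genes in the files. They were chosen by name, as the GATA factors of blood cells and the cofactor FOG-1 that *Zfpm1* encodes, with earlier results of these data known. The cells came from wild type CD1 mouse embryos at E13.5. Fetal liver was depleted of TER-119 cells, and sorted Sca-1+ cKit+ hematopoietic stem and progenitor cells (HSPCs) were grown at 1000 cells per well on plates coated with DL4, a Notch ligand, at 10 μg/mL and with the adhesion molecule VCAM-1 at 2.32 μg/mL. Cells were captured straight after the sort or after 4 or 7 days of culture and then pooled, and the labels do not say which of the 2 libraries, FL001 and FL002, holds which cells. Both libraries carry the label DL4plusVCAM, so there is no untreated control, no second genotype and no statement that the libraries came from separate litters.

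GATA factors are zinc finger transcription factors that bind the letters GATA in DNA. *Gata2* acts in stem cells, early progenitors and mast cells, *Gata1* in erythroid, megakaryocyte, mast and eosinophil cells, and *Gata3* in T cell precursors and innate lymphoid cells. FOG-1 does not bind DNA on its own but sits on the GATA finger, where it recruits the NuRD chromatin complex and CtBP proteins. In red cell development *Gata1* takes over sites held by *Gata2*, which is known as a GATA switch. T cell development from a progenitor also passes from one GATA factor to another, since *Gata3* is needed for the earliest thymic progenitors.

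The promoters of *Gata1*, *Gata2* and *Gata3* are shown first, each from 250 bases before to 50 bases after the RefSeq start in build GRCm38.p6. Every GATA core, on either strand, is in capitals. *Gata1* starts on the minus strand (chrX:7967861-7968160), *Gata2* has 2 starts on the plus strand (chr6:88193641-88193940 upstream and chr6:88198414-88198713 downstream), and *Gata3* starts on the minus strand (chr2:9878551-9878850).
Gata1: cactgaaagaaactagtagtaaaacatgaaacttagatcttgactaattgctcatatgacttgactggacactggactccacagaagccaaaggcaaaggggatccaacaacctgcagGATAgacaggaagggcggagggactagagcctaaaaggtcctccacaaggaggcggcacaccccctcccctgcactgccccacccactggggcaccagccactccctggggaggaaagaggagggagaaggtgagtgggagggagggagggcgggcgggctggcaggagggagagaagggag
Gata2 upstream start: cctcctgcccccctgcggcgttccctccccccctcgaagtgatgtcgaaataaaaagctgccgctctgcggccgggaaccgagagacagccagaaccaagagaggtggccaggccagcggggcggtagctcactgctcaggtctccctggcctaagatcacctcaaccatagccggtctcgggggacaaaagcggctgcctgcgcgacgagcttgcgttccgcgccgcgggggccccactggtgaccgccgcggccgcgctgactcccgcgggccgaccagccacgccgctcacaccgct
Gata2 downstream start: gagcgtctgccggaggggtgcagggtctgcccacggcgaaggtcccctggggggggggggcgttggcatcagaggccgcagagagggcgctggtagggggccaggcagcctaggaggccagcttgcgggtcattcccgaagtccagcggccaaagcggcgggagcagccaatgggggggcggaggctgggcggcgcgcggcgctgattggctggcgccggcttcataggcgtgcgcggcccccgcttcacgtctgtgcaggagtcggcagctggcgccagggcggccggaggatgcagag
Gata3: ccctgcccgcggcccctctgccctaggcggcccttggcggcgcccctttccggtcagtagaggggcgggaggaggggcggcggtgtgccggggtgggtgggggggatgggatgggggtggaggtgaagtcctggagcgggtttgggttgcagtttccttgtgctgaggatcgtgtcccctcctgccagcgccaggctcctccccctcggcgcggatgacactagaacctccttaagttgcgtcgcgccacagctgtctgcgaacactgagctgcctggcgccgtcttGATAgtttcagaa

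The letters GATA occurred once in the *Gata1* window, 132 bases before the start, and once in the *Gata3* window, where they begin at position 38 counted from the start. Neither *Gata2* window held them. These letters occurred on 1 strand or the other in 57.9% of 32851 RefSeq promoters of the same length. The *Zfpm1* window (chr8:122281891-122282190, plus strand) held no GATA and 2 copies of TGGGAA, letters found in 25.6% of promoters. GC content was 57.3% for *Gata1*, 69.3% and 73.7% for *Gata2*, 67.3% for *Gata3* and 73.7% for *Zfpm1*, against a median of 52.7%. Libraries read at the 3′ end do not show which *Gata2* start was used.

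FL001 gave 1788 cells with a median of 7722 UMIs and FL002 4100 cells with a median of 4752.5, at a range of 1510 to 27025 UMIs per cell. A UMI marks 1 captured RNA molecule. Cells were placed in 6 gates set on other genes, which may overlap. The progenitor gate (*Lmo2*+*Mef2c* of at least 2 UMIs with *Cd3g* at most 1) held 428 and 724 cells, the Pf4 gate (*Pf4*+*Gp9*+*Gp1bb* of at least 1, platelet genes) 127 and 177, the pre-Cd3g gate (*Cd3g* at most 2 with *Lmo2*+*Mef2c* at most 1) 381 and 1134, the Cd3g gate (*Cd3g* of at least 3 without *Il2ra*) 327 and 873, the Il2ra gate (*Il2ra* of at least 1) 738 and 1668, and the committed gate (*Ptcra*+*Lef1*+*Bcl11b* of at least 2) 451 and 501, for FL001 and FL002 in that order. Levels are CPM, the UMIs of a gene per 1000000 UMIs in the summed cells of a gate, with 95% exact Poisson intervals, and shares are cells with at least 1 UMI with 95% exact binomial intervals. These intervals cover counting error only, and gates that share cells are not independent. A lower level in such a sum can come from fewer expressing cells or from less RNA in each, which these sums cannot tell apart. The libraries shared 10 cell barcodes, and 64 cells of FL001 (3.58%) and 105 of FL002 (2.56%) held UMIs of both *Xist* and a Y-linked gene, which 1 cell of either sex should not hold.

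*Gata2* and *Gata3* exchanged places between the progenitor gate and the T lineage gates in both libraries. *Gata1* and *Zfpm1* were both highest in the Pf4 gate, at 20.8 and 34.3 CPM for *Gata1* and 28.3 and 16.1 CPM for *Zfpm1* in FL001 and FL002. From the progenitor gate to the committed gate the level of *Gata3* was 7.73 times higher in FL001 and 8.02 times higher in FL002, and that of *Gata2* 23.6 and 10.9 times lower. *Gata3* had the most UMIs of the 4 genes in the pre-Cd3g, Cd3g, Il2ra and committed gates (UMIs of 3′ ends do not scale with transcript length). It had a UMI in 47.0% of committed cells of FL001 and 37.5% of FL002.

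**Figure D1:**
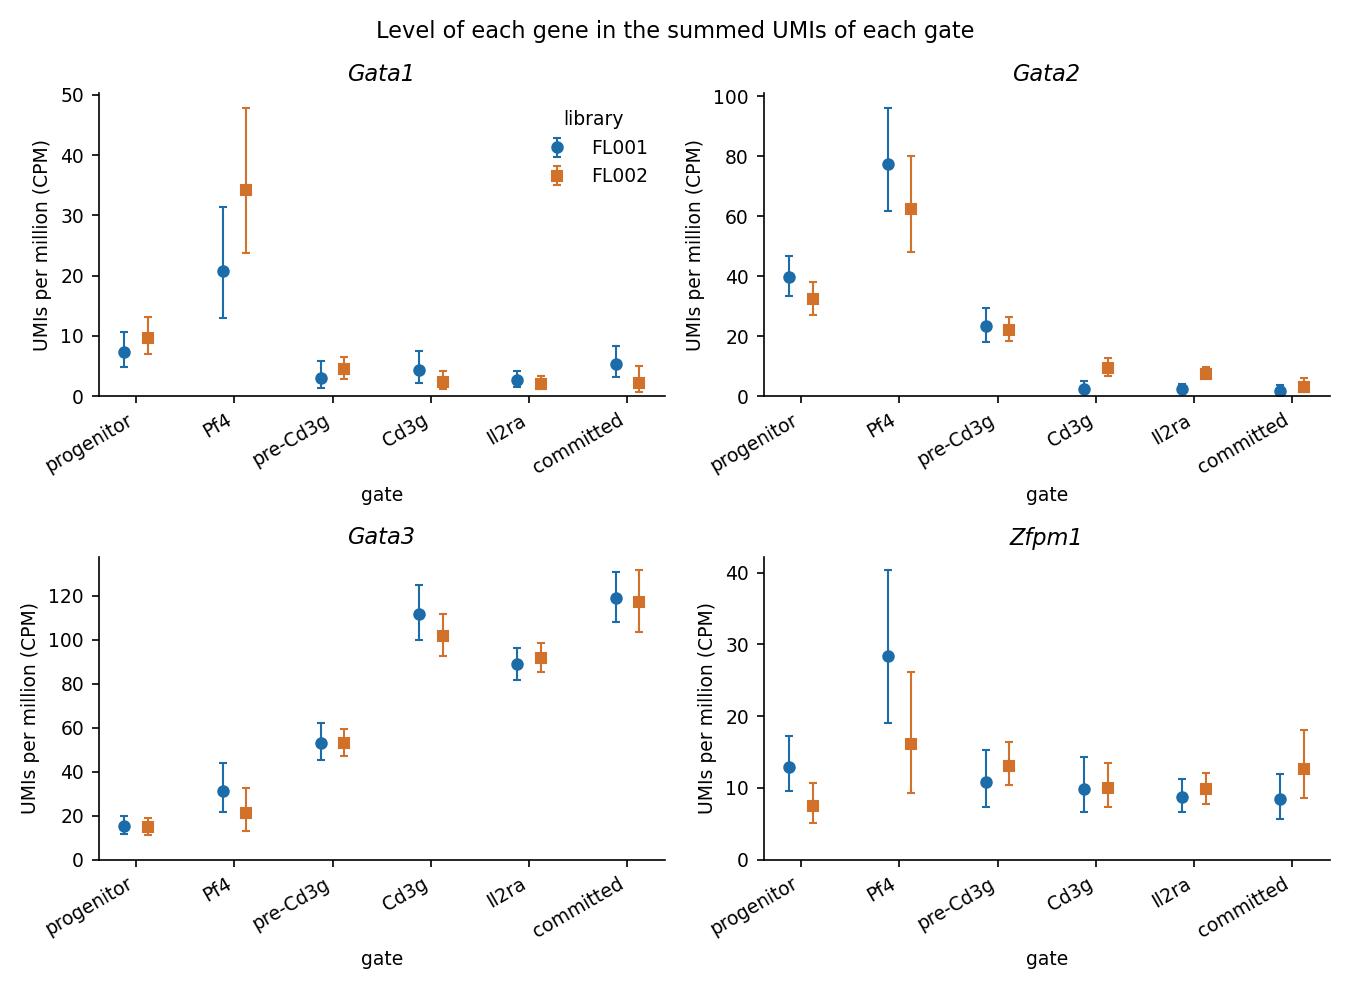
Level of each gene in CPM (vertical axis, from 0, a scale of its own for each gene) in the summed cells of 6 gates (horizontal axis), with circles for FL001, squares for FL002 and bars for 95% exact Poisson intervals. *Gata2* falls from the progenitor and Pf4 gates to under 10 CPM in the Cd3g, Il2ra and committed gates, while *Gata3* climbs from about 15 CPM in the progenitor gate to over 110 CPM in the committed gate of both libraries.

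*Gata2*, the factor of stem and progenitor cells, was at 39.7 CPM (33.5 to 46.6) in the progenitor gate of FL001 and at 32.2 CPM (27.1 to 38.1) in that of FL002. The Pf4 gate was higher still, at 77.4 and 62.5 CPM, and the pre-Cd3g gate lower, at 23.2 and 22.1 CPM. Past *Cd3g* the libraries parted. The Cd3g gate was at 2.48 CPM (0.996 to 5.10) in FL001 and 9.31 CPM (6.69 to 12.6) in FL002, the Il2ra gate at 2.48 and 7.51 CPM, and the committed gate at 1.68 and 2.96 CPM. FL002 therefore kept more *Gata2* in its Cd3g and Il2ra gates than FL001, with intervals that did not overlap, and the libraries met again at commitment. Within FL002 the *Gata2* of the Cd3g gate lay mostly in cells outside the committed gate, at 11.7 CPM (8.35 to 15.9) in 675 cells against 1.02 CPM (0.0258 to 5.69) in the 198 cells that were also in the committed gate. In FL001 these levels were 3.38 CPM (1.10 to 7.88) in 159 cells and 1.49 CPM (0.180 to 5.36) in 168 cells. Outside the committed gate the intervals of the libraries did not overlap. Il2ra cells outside that gate differed likewise, at 2.82 CPM (1.46 to 4.92) in FL001 and 8.09 CPM (6.12 to 10.5) in FL002.

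The share of cells with a *Gata2* UMI was 21.03% (17.3 to 25.2) in the progenitor gate of FL001 and 14.1% (11.6 to 16.8) in that of FL002, and 1.33% and 1.40% in the committed gates, at median depths of 8014.5, 5649.5, 6998 and 4175 UMIs. Thinned to 1500 UMIs per cell before the gates were set, 4.85% and 9.18% of progenitor cells held a *Gata2* UMI, and 0 of 168 and 1 of 190 committed cells, where the 0 allows a share of up to 1.79%. Barcodes with at most 100 UMIs, which hold free RNA of the whole library, carried *Gata2* at 15.4 CPM in FL001 and 18.7 CPM in FL002, and the committed level was 0.109 and 0.158 times that.

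*Gata3*, the factor of T cell precursors, followed the same order of gates in both libraries. In the progenitor gate it was at 15.4 CPM (11.7 to 19.9) in FL001 and 14.6 CPM (11.2 to 18.7) in FL002. The Pf4 gate was at 31.2 and 21.2 CPM, the pre-Cd3g gate at 53.2 and 53.0 CPM, and the Il2ra gate at 88.8 and 91.7 CPM. The Cd3g gate was at 111.8 CPM (99.8 to 124.8) and 101.8 CPM (92.6 to 111.7), and the committed gate at 118.9 CPM (107.9 to 130.8) and 117.0 CPM (103.6 to 131.6). The last pair of gates were neighbours whose intervals overlapped in both libraries, and in FL002 the Il2ra and Cd3g gates overlapped as well. The intervals of the progenitor and Pf4 gates overlapped in FL002 only. The Cd3g and committed gates shared 168 cells in FL001 and 198 in FL002, and the progenitor and Pf4 gates 73 and 88. Levels within each of these pairs are therefore not independent.

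A UMI of *Gata3* was found in 11.7% and 7.60% of progenitor cells, 26.2% and 21.2% of pre-Cd3g cells, 45.9% and 35.4% of Cd3g cells and 44.7% and 33.0% of Il2ra cells of FL001 and FL002. FL001 was the higher library in each of these gates and was also the more deeply read. With each cell thinned to 1500 UMIs before the gates were set, the committed shares were 13.7% of 168 cells and 17.4% of 190 cells. As a floor, *Gata3* was counted in cells with at least 20 UMIs of the neutrophil granule genes *Mpo*, *Elane*, *Prtn3* and *Ctsg* and at most 1 of *Cd3g*, a set chosen after the values were seen. Its share there was 4.94% of 81 cells in FL001 and 3.61% of 83 cells in FL002, at median depths of 11393 and 7911 UMIs. At 4.10 CPM (1.12 to 10.49) this floor lay below the progenitor gate of FL001, and at 4.42 CPM (0.911 to 12.9) its interval overlapped that of the progenitor gate of FL002. Free RNA held more *Gata3* than that gate did, at 77.2 and 78.3 CPM in barcodes with at most 100 UMIs, and the progenitor level was 0.199 and 0.186 times it. The part of free RNA in the low *Gata3* level of progenitor cells was not tested.

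Weighed against each other in the same sums, *Gata2* made up 72.1% of the UMIs of *Gata2* and *Gata3* in the progenitor gate of FL001 (65.4 to 78.1) and 68.8% in that of FL002 (61.9 to 75.2). It made up 30.4% and 29.4% in the pre-Cd3g gate, 2.17% and 8.38% in the Cd3g gate, 2.72% and 7.57% in the Il2ra gate and 1.39% and 2.46% in the committed gate. The granule cells used as a floor for *Gata3* were no floor for *Gata2*. They held it at 16.4 CPM (9.37 to 26.6) in FL001 and 26.5 CPM (15.7 to 41.9) in FL002. There *Gata2* made up 80.0% (56.3 to 94.3) and 85.7% (63.7 to 97.0), so a high *Gata2* part was not particular to the progenitor gate. Ordered by the number of *Cd3g* UMIs alone, the *Gata2* part was 59.2% and 51.5% in cells with none, 20.6% and 18.9% with 1 or 2, 5.48% and 10.47% with 3 to 5, and 1.89% and 4.11% with 21 or more. Most of the change came before 3 *Cd3g* UMIs in both libraries.

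**Figure D2:**
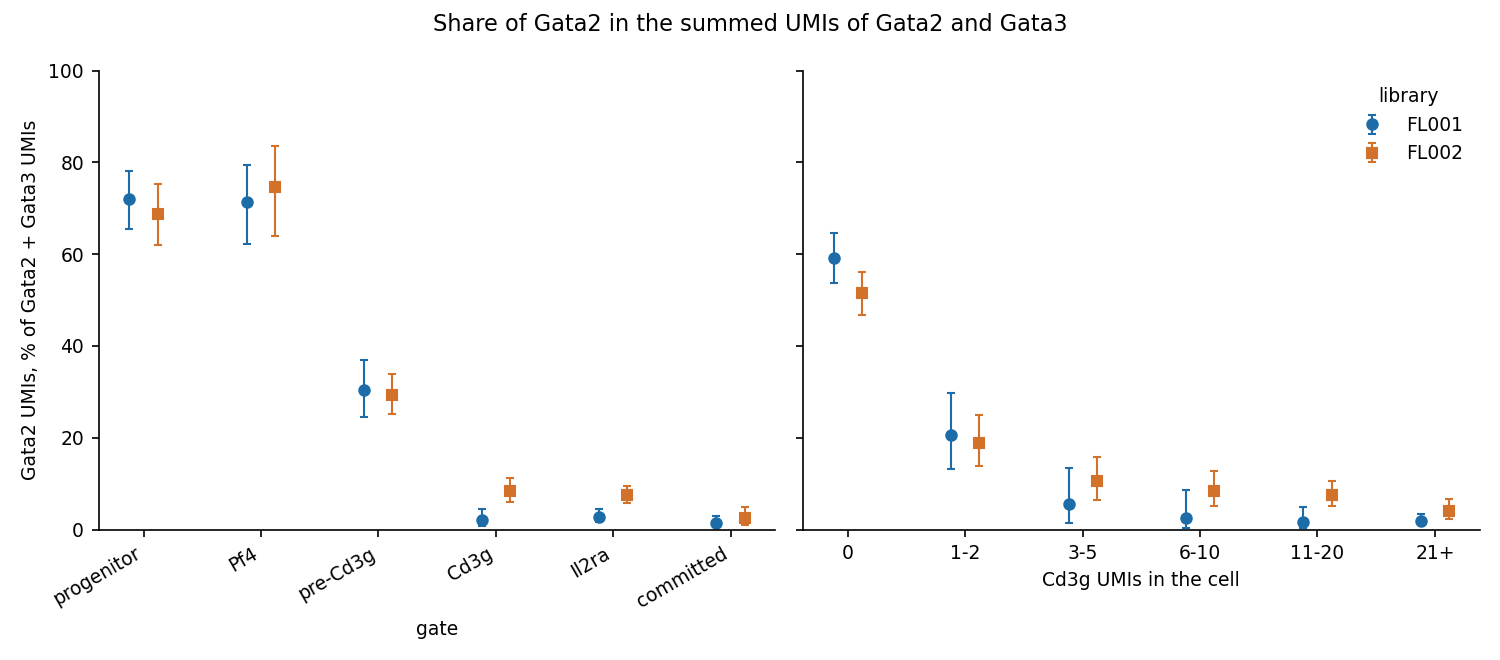
*Gata2* UMIs as a percentage of *Gata2* and *Gata3* UMIs (vertical axis, 0 to 100) by gate on the left and by the number of *Cd3g* UMIs in the cell on the right, for FL001 (circles) and FL002 (squares), with 95% exact binomial intervals. The share falls from 59.2% and 51.5% in cells without *Cd3g* to 20.6% and 18.9% with 1 or 2 UMIs, and FL002 stays above FL001 in the Cd3g and Il2ra gates.

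*Il2ra*, which encodes the IL-2 receptor alpha chain CD25, divided the pre-Cd3g gate in the same way. Without *Il2ra*, *Gata2* was at 29.1 CPM (22.5 to 37.0) in 306 cells of FL001 and 25.9 CPM (21.3 to 31.1) in 858 cells of FL002. With *Il2ra* it was at 4.28 CPM (0.882 to 12.5) in 75 cells and 10.9 CPM (6.20 to 17.6) in 276 cells, so the intervals did not overlap in either library. *Gata1* had 9 and 26 UMIs in the cells without *Il2ra* and 0 in the cells with it, which allows up to 4.28 CPM in FL001 and 2.03 CPM in FL002 at 3 UMIs. *Gata3* was at 52.5 and 46.5 CPM without *Il2ra* and at 55.6 and 72.6 CPM with it, a difference outside the intervals in FL002 only.

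To test changes over libraries, each cell was put in 1 class only, the Pf4 gate first and then committed, Il2ra, Cd3g, pre-Cd3g and progenitor, and the 12 sums of 6 classes and 2 libraries were fitted with edgeR's quasi-likelihood test across 10570 genes with the library as a term. The 10 genes that set the gates were left out. The library term takes out a constant difference between the libraries. With 2 libraries of 1 label, a p-value then measures only how unevenly class differences repeat in these libraries, together with counting error. Adjusted p-values are Benjamini-Hochberg values over all genes tested, and the comparisons share classes.

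*Gata3* rose in the pre-Cd3g class over the progenitor class, from 14.3 to 55.4 CPM in FL001 and from 15.1 to 47.4 CPM in FL002, a log2 fold change of 1.77 ± 0.17 (SE, adjusted p = 3.67e-10, edgeR quasi-likelihood test). It was the only 1 of the 4 genes past the threshold in this comparison, in which 12.3% of all genes passed, 6.58% higher and 5.74% lower. *Gata2* was lower in the pre-Cd3g class in both libraries, at 20.6 against 30.96 CPM in FL001 and 20.998 against 28.99 CPM in FL002, and did not pass (log2 fold change of -0.54 ± 0.23, adjusted p = 0.121). With cells thinned to 1500 UMIs and classes set on those counts, the *Gata3* difference was 1.10 and did not pass (adjusted p = 0.137, edgeR). The thinned pre-Cd3g class held 811 and 1875 cells, against 267 and 786 at full depth, so it was largely made of other cells. Markers of several lineages moved in the same comparison. Higher in the pre-Cd3g class were 6 of 8 T lineage markers tested, 6 of 8 innate lymphoid or NK markers, 3 of 4 mast or basophil markers and 5 of 9 neutrophil or monocyte markers, of which the other 4 were lower, as were 5 of 7 stem and progenitor markers. *S100a8*, a neutrophil gene, was at 1877 against 323.9 CPM in FL001 and 409.8 against 145.2 CPM in FL002. Their part in the *Gata3* rise was not tested.

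From the pre-Cd3g to the Cd3g class both genes changed, in opposite directions. Genes past the threshold were 7.64% of all, 3.92% higher and 3.73% lower. *Gata3* rose further, from 55.4 to 84.6 CPM and from 47.4 to 97.3 CPM (log2 fold change of 0.89 ± 0.13, adjusted p = 3.37e-06, edgeR). *Gata2* fell from 20.6 to 3.53 CPM in FL001 and from 20.998 to 11.8 CPM in FL002 (log2 fold change of -1.18 ± 0.31, adjusted p = 0.0106, edgeR). The *Gata2* fall was unequal between the libraries, at -2.55 in FL001 alone and -0.84 in FL002 alone. Its adjusted p was 0.0522 with DESeq2 and 0.216 without the library term. Markers of other lineages were lower in the Cd3g class as well, namely 9 of 9 neutrophil or monocyte markers tested, 5 of 7 stem and progenitor markers and 2 of 4 mast or basophil markers (*Ms4a2* and *Hdc*), while 6 of 8 T lineage markers were higher. *S100a8* was at 3.53 against 1877 CPM in FL001 and 2.06 against 409.8 CPM in FL002. Their part in the *Gata2* fall was not tested.

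Between the Il2ra and Cd3g classes none of the 4 genes passed in edgeR, where 0.17% of all genes did (0.0946% higher and 0.0757% lower), nor in DESeq2, and all 4 had an unadjusted p above 0.05. *Gata3* was at 79.6 against 84.6 CPM in FL001 and 88.0 against 97.3 CPM in FL002. The committed class stood above the Il2ra class for *Gata3*, at 119.3 against 79.6 CPM and 117.6 against 88.0 CPM, and the difference passed (log2 fold change of 0.50 ± 0.10, adjusted p = 0.000676, edgeR) where 10.1% of all genes did, 5.63% higher and 4.45% lower. That call was lost with DESeq2 (adjusted p = 0.0728), without the library term (0.0586) and with thinned cells (0.708). *Gata2* was lower in the committed class, at 1.69 against 2.66 CPM and 2.98 against 8.28 CPM, and stood at adjusted p = 0.0581 (edgeR).

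Across the whole span, from the progenitor to the committed class, *Gata3* rose by 3.03 ± 0.15 on the log2 scale (adjusted p = 2.46e-19, edgeR) and *Gata2* had a log2 fold change of -3.69 ± 0.37 (adjusted p = 1.32e-10, edgeR). *Gata2* went from 31.0 to 1.69 CPM in FL001 and from 29.0 to 2.98 CPM in FL002. These 2 calls stand beside 37.6% of all genes called. Both held in every alternative run with a test. *Zfpm1* was at 8.46 against 7.14 CPM and 12.8 against 5.97 CPM and did not pass (adjusted p = 0.0882). *Gata1* was at 5.36 against 2.38 CPM in FL001 and 2.13 against 3.69 CPM in FL002, so the libraries disagreed in direction (adjusted p = 0.514). With the Pf4 cells left in the other classes its log2 difference was -1.05 and passed (adjusted p = 0.0243).

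**Figure D3:**
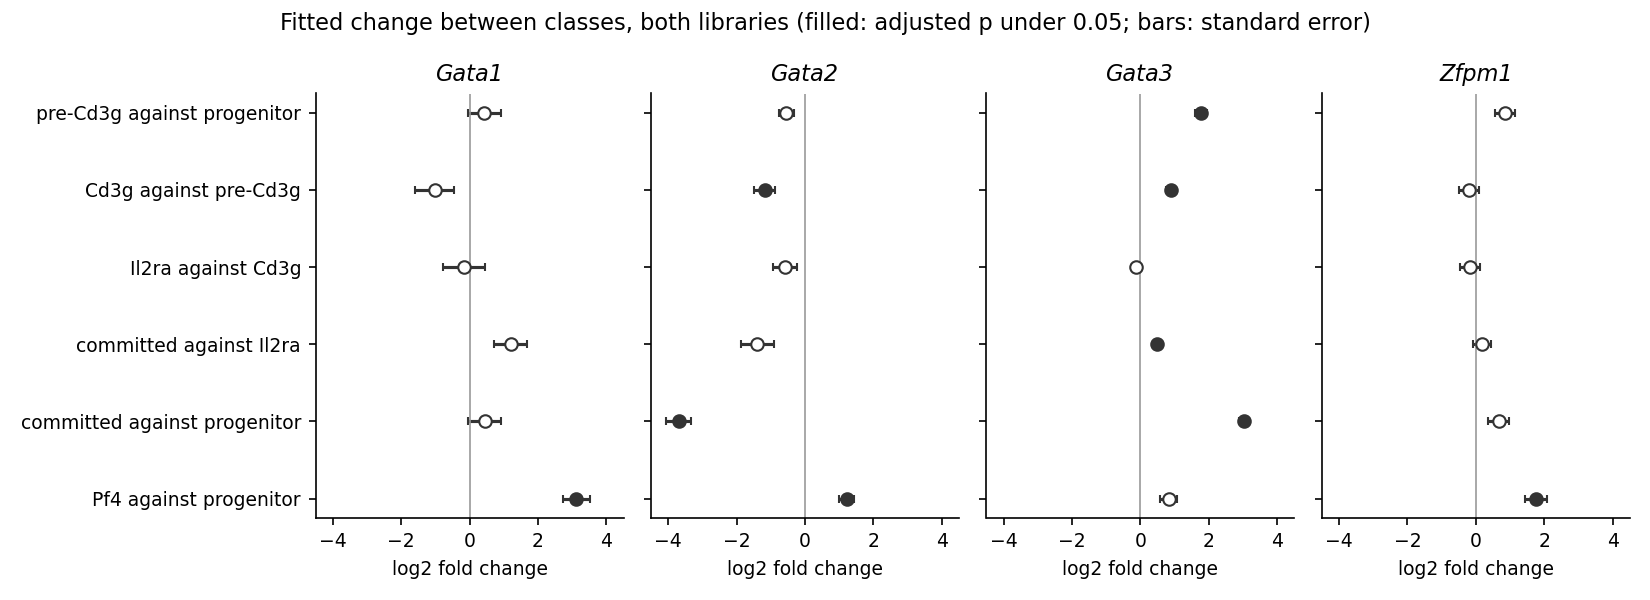
Log2 fold change of each gene (horizontal axis, first class against second) in 6 comparisons of classes (rows) from the fit over both libraries, with bars for the standard error and filled circles for an adjusted p under 0.05. *Gata3* rises in 4 of the comparisons, *Gata2* falls in 2 and rises in the Pf4 class, and *Gata1* and *Zfpm1* pass in the Pf4 class alone.

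*Gata1*, the erythroid and megakaryocyte factor, was scarce outside the Pf4 gate, with 64 UMIs in all of FL001 and 92 in all of FL002. In the Pf4 gate it was at 20.8 CPM (13.0 to 31.5) in FL001 and 34.3 CPM (23.7 to 47.9) in FL002, with a UMI in 7.87% and 13.0% of cells. The progenitor gate was at 7.29 and 9.65 CPM, and most of that lay in cells that also met the Pf4 gate. Progenitor cells outside the Pf4 gate were at 2.55 CPM (1.10 to 5.02) in FL001 and 3.46 CPM (1.84 to 5.92) in FL002, against 33.8 CPM (20.3 to 52.7) and 57.0 CPM (37.9 to 82.3) in those within it. In the other gates *Gata1* ran from 2.03 to 5.32 CPM and was found in 0.959% to 3.99% of cells. The granule cells held it in 0 of 81 cells of FL001, which allows up to 3.70%, and in 3.61% (0.752 to 10.2) of those of FL002, so the intervals of these shares overlapped that background. Free RNA, in barcodes with at most 100 UMIs, held *Gata1* at 6.61 CPM (2.43 to 14.4) in FL001 and 5.34 CPM (1.96 to 11.6) in FL002. The part of free RNA in the low *Gata1* levels was not tested.

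The Pf4 class held more *Gata1* than the progenitor class, with 20.8 against 2.38 CPM in FL001 and 34.3 against 3.69 CPM in FL002 (log2 fold change of 3.12 ± 0.40, adjusted p = 5.11e-07, edgeR). Genes past the threshold were 3.78% of all, and 3 of the 4 genes were among them. *Gata2* was higher in the Pf4 class as well, at 77.4 against 31.0 CPM and 62.5 against 29.0 CPM (log2 fold change of 1.22 ± 0.22, adjusted p = 0.000318, edgeR), a call that was lost without the library term (adjusted p = 0.168) and with thinned cells (0.254). *Zfpm1* was at 28.3 against 7.14 CPM and 16.1 against 5.97 CPM (log2 fold change of 1.76 ± 0.33, adjusted p = 0.000558, edgeR). *Gata3* was at 31.2 against 14.3 CPM and 21.2 against 15.1 CPM and did not pass (adjusted p = 0.0674). Its direction turned to a log2 difference of -1.73 when the class was limited to cells with at least 3 UMIs of the gate genes, which left 14 and 19 cells. Thinned to 1500 UMIs per cell, the Pf4 gate held *Zfpm1* at 35.1 and 9.66 CPM in FL001 and FL002. The thinned progenitor gate held it at 38.8 and 9.66 CPM. *Gata1* was then at 17.5 and 48.3 CPM against 25.9 and 9.66 CPM. Each of these levels rests on at most 6 UMIs and was not tested, and the fit with thinned cells gave no value for *Gata1*. No value of that fit is given here for *Zfpm1* either.

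Cells of the Pf4 gate were a mixture, since 101 of the 127 in FL001 and 144 of 177 in FL002 held exactly 1 UMI of the gate genes. In those with 1 UMI, *Gata2* made up 51.6% and 67.7% of the UMIs of *Gata2* and *Gata3*. In those with 2 to 9 UMIs it made up 95.1% (83.5 to 99.4) in FL001 and 100% (80.5 to 100) in FL002, with 2 and 0 *Gata3* UMIs. Their *Gata2* level was 254.4 CPM (180.9 to 347.8) in 23 cells and 137.7 CPM (80.2 to 220.5) in 26 cells, the highest in each library among the sets described here. *Gata1* was at its highest where the gate genes were most abundant, on 9 and 8 UMIs. The 3 cells of FL001 and 7 of FL002 with 10 or more UMIs had it at 211.5 CPM (96.7 to 401.6) and 185.1 CPM (79.9 to 364.8), and *Gata3* at 0 UMIs in both. In the same cells *Gata2* was at 235.0 CPM (10 UMIs) in FL001 and 23.1 CPM (1 UMI) in FL002. *Zfpm1* was at 282.0 CPM (12 UMIs, 10 of them in 1 cell) in FL001 and 92.6 CPM (4 UMIs) in FL002. Markers of several lineages moved with the class. Higher than in the progenitor class were 5 of 6 megakaryocyte markers tested, 7 of 8 erythroid and 6 of 8 T lineage markers, and lower were 6 of 9 neutrophil or monocyte markers. Of the 2087 hemoglobin UMIs of the class in FL001, 2073 lay in 1 cell, which held no *Gata1* UMI, and FL002 had 6 in all. Their part in the *Gata1* result was not tested beyond this, and without that cell *Gata1* was at 20.8 CPM.

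*Zfpm1*, which encodes FOG-1, was highest in the Pf4 gate in both libraries, as *Gata2* was. In the other 5 gates, which share cells with the Pf4 gate, it ran from 7.53 to 13.1 CPM over both libraries. The intervals of these 5 gates overlapped within each library. The widest gap lay in FL002, between the progenitor gate at 7.53 CPM (5.15 to 10.6) and the pre-Cd3g gate at 13.1 CPM (10.3 to 16.4). Progenitor cells that did not meet the Pf4 gate were at 7.64 CPM in FL001 and 6.12 CPM (3.88 to 9.19) in FL002. That interval of FL002 lay below its pre-Cd3g gate. The Pf4 gate was at 28.3 CPM (19.1 to 40.4) in FL001 and 16.1 CPM (9.21 to 26.2) in FL002. The Pf4 interval lay above that of the progenitor gate in FL001 only. In FL001 1 cell with 1816 UMIs of the gate genes and 3 of *Gata1* held 10 of the 30 *Zfpm1* UMIs, and without it the class was at 19.4 CPM. A *Zfpm1* UMI was found in 4.14% to 8.41% of cells in the 5 gates other than Pf4. It was found in 2.47% (0.300 to 8.64) and 4.82% (1.33 to 11.9) of the granule cells, so the intervals of these shares overlapped. By level the granule cells were at 2.05 CPM (0.248 to 7.40) in FL001 and 5.89 CPM (1.60 to 15.1) in FL002. That interval of FL001 lay below its progenitor gate, at 12.95 CPM (9.55 to 17.2), and that of FL002 overlapped all its gates. In the progenitor gate of FL001, however, 24 of the 48 *Zfpm1* UMIs lay in cells that also met the Pf4 gate. Progenitor cells of FL001 outside the Pf4 gate, at 7.64 CPM (4.89 to 11.4), overlapped the granule cells. The pre-Cd3g class was above the progenitor class in both libraries (log2 fold change of 0.86 ± 0.30, adjusted p = 0.0539, edgeR). That difference passed with cells of at least 3000 UMIs (adjusted p = 0.0256), without a filter on low counts (0.0335) and with the highest doublet scores left out (0.0281). Free RNA held *Zfpm1* at 7.72 CPM (3.10 to 15.9) in FL001 and 6.23 CPM (2.50 to 12.8) in FL002, and its part in the gate levels was not tested.

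In single cells at full depth *Gata1* was more frequent in progenitor cells that held *Gata2*, and so was *Zfpm1*. No difference of *Gata2* with *Gata3* cleared the intervals within a gate. Among progenitor cells *Gata1* was found in 13 of 90 cells with *Gata2* (14.4%, 7.92 to 23.4) and 2 of 338 without (0.592%, 0.0717 to 2.12) in FL001. In FL002 it was found in 10 of 102 (9.80%, 4.80 to 17.3) and 16 of 622 (2.57%, 1.48 to 4.14). The pre-Cd3g gate of FL002 had 14 of 101 (13.9%) against 10 of 1033 (0.968%). The intervals did not overlap in these comparisons, and in the pre-Cd3g gate of FL001 (8.89% against 1.19%) they did. Thinned to 1500 UMIs per cell, few cells were left with both genes and the intervals overlapped in the progenitor, Pf4 and pre-Cd3g gates of both libraries. *Gata1* was then found in 2 of 5 progenitor cells with *Gata2* against 2 of 98 without in FL001 and in 1 of 19 against 2 of 188 in FL002. In the thinned pre-Cd3g gate it was found in 0 of 38 against 4 of 938 cells and in 2 of 71 against 17 of 2224, and in the thinned Pf4 gate of FL002 in 0 of 9 against 4 of 60. *Zfpm1* was likewise more frequent in progenitor cells with *Gata2*, at 18.9% (11.4 to 28.5) against 5.62% (3.42 to 8.64) in FL001 and 11.8% (6.23 to 19.6) against 2.89% (1.72 to 4.54) in FL002, and after thinning these intervals overlapped too. In the Pf4 gate of FL001 it was found in 15 of 43 cells with *Gata2* (34.9%) and 3 of 84 without (3.57%), whereas in FL002 the values were 8.89% and 8.33%. With *Gata1*, *Zfpm1* was found in 7 of 15 progenitor cells (46.7%, 21.3 to 73.4) against 7.02% (4.75 to 9.93) without in FL001. In FL002 the values were 3 of 26 (11.5%, 2.45 to 30.2) and 3.87% (2.56 to 5.58), with overlapping intervals. Over all kept cells, which mix the gates, they were 26.5% against 6.96% and 14.7% against 4.75%, outside the intervals in both libraries. After thinning these all-cell intervals overlapped in FL002 only. Of the progenitor cells with *Gata1*, 8 of 15 in FL001 and 17 of 26 in FL002 also met the Pf4 gate. *Gata2* was in 38.4% and 28.4% of progenitor cells within the Pf4 gate, against 17.5% and 12.1% of those outside it. The part of this overlap of gates in the co-detection was not tested.

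*Gata2* and *Gata3* met in 22 cells of FL001 and 52 of FL002. In the pre-Cd3g gate *Gata2* made up 30.4% of the UMIs of these genes in FL001 and 29.4% in FL002. There *Gata2* was found in 5 of 100 cells with *Gata3* (interval of 1.64% to 11.3%) and 40 of 281 without (14.2%, 10.4 to 18.9) in FL001. In FL002 it was found in 13 of 240 (5.42%, 2.92 to 9.08) and 88 of 894 (9.84%, 7.97 to 11.99). The share with *Gata3* was the lower in both libraries although cells with *Gata3* had more UMIs, at medians of 9244.5 against 7013 and 5634.5 against 4745.5, and the intervals overlapped. In the progenitor gate the values were 8 of 50 against 82 of 378 cells in FL001 and 11 of 55 against 91 of 669 in FL002, so no common direction was found there. Of the cells with both genes, 2 of 22 in FL001 and 4 of 52 in FL002 also held *Xist* and Y-linked UMIs, against 3.58% and 2.56% of all cells. In the progenitor gate these were 2 of 8 and 2 of 11 cells. The part of pairs of cells in 1 droplet was not tested beyond this. *Zfpm1* was found at 7.33% against 7.58% of FL001 cells with and without *Gata3* and at 5.94% against 4.57% of FL002 cells, with overlapping intervals.

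**Figure D4:**
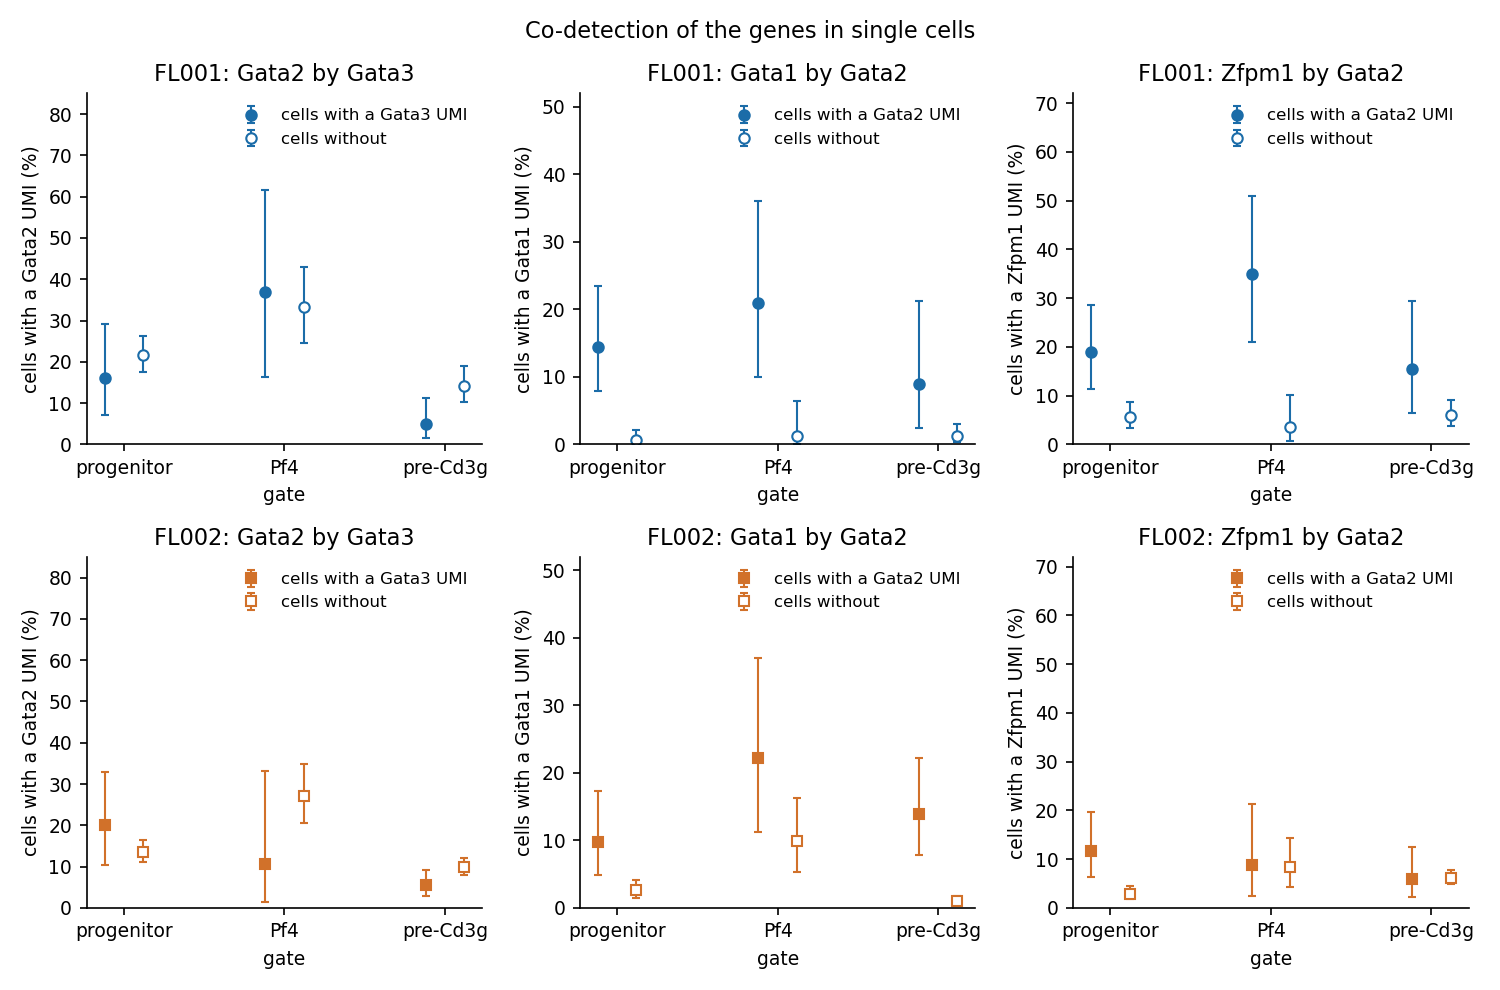
Share of cells with a UMI of a first gene (vertical axis, percent, from 0) among cells with a UMI of a second gene (filled) and without one (open), in 3 gates (horizontal axis), for FL001 in the upper row and FL002 in the lower, with 95% exact binomial intervals. At full depth *Gata1* is more frequent in cells with *Gata2* in every gate shown, with overlapping intervals in the Pf4 gate of FL002 and the pre-Cd3g gate of FL001. *Gata2* is less frequent in pre-Cd3g cells with *Gata3* (5 of 100 and 13 of 240 cells) than without (14.2% and 9.84%), with overlapping intervals in both libraries.

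What else the cells held was read from gene lists, cell by cell within a class and each library alone, and the genes below are those whose intervals did not overlap in both libraries, with *Ms4a2* as the exception. Pre-Cd3g cells with *Gata2*, 29 in FL001 and 65 in FL002, held *Meis1*, a stem cell homeobox factor, in 48.3% and 29.2% of cells, against 13.9% and 12.5% of those without *Gata2*. They held *Tcf7*, an early target of Notch in T precursors, in 24.1% and 18.5% against 50.4% and 45.9%. Cells with *Gata3* in the same class showed the opposite for *Tcf7*, at 75.0% and 66.7% against 37.4% and 38.1%. In the pre-Cd3g gate cells with *Gata3* were deeper, with medians of 9244.5 against 7013 UMIs and 5634.5 against 4745.5. The part of depth in this *Tcf7* difference was not tested. *Ms4a2*, a chain of the IgE receptor on mast cells, was in 6.90% and 4.62% of cells with *Gata2* against 0.840% and 0.139%, a difference outside the intervals in FL002 only. These shares rest on very few of the 29 and 65 cells. *Ms4a2* is 1 gene of a list of 7 mast or basophil markers, and the others are not reported here by *Gata2*, so no mast cell link is drawn. In the Pf4 class, *Dtx1*, a Notch target, was in 1 of 43 and 1 of 45 cells with *Gata2* against 22.6% and 18.2% of those without.

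Within the progenitor class, cells with *Gata2* more often held *Car2*, a carbonic anhydrase of erythroid and progenitor cells, at 62.3% and 45 of 75 cells against 40.1% and 43.1%. They less often held *Flt3*, a receptor of lymphoid-primed progenitors, at 14.8% of 61 cells and 9 of 75 cells against 38.3% and 26.9%. Progenitor cells with *Gata3* more often held the Notch target *Nrarp*, at 47.2% and 32.6% against 12.4% in both libraries, and *Runx3*, at 52.8% and 47.8% against 26.1% and 18.9%. They less often held the stem cell factor *Hlf*, at 8.33% and 6.52% against 30.4% and 21.4%. Cells with *Gata3* in the progenitor gate were deeper, with medians of 11153.5 against 7789 UMIs and 6281 against 5530, and the part of depth in the higher shares was not tested. In the Pf4 class, cells with *Gata1* held *Tal1*, its partner in erythroid cells, in 8 of 10 and 9 of 23 cells against 23.9% and 8.44%, and the platelet receptor gene *Treml1* in 5 of 10 and 6 of 23 against 4.27% and 1.95%. In the Il2ra class, cells with *Zfpm1* held *Lyl1*, a relative of *Tal1*, in 91.2% and 71.9% against 66.3% and 49.0%. Cells of the Il2ra gate with both *Zfpm1* and *Gata3* had medians of 13191 and 7821 UMIs, against 7909 and 4472.5 in the whole gate. The part of depth in the *Gata1* and *Zfpm1* values was not tested either.

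Genes that work with the members were taken from lists and are described by counts in the committed against the progenitor class, where 18.8% of all genes were higher and 18.9% lower and the median of all genes was -0.02. The lists share genes with the marker lists, such as *Cd3d* with the T lineage markers and *Hlf* with the stem and progenitor markers. The committed class was set on T lineage genes and the Pf4 class on platelet genes. The counts therefore describe the cells that a class holds, and whether these genes follow a GATA factor was not tested. Of 19 genes of a T precursor programme linked to *Gata3*, 15 were higher and 1 lower, with a median log2 fold change of 2.58. *Cd3d*, a chain of the T cell receptor complex, rose by 7.06 ± 0.20 and *Cd3e* by 5.87 ± 0.25, while the interleukin receptor gene *Il4ra* had -2.76 ± 0.45. Of 12 genes of a *Gata2* programme, 9 were lower and 1 higher, with a median of -1.83. *Mecom* went from 13.6 and 14.5 CPM to 0 UMIs in both libraries and *Hlf* changed by -6.32 ± 0.36, whereas the mast cell protease gene *Cpa3* rose by 1.98 ± 0.18, from 15.7 to 114.8 CPM in FL001 and from 38.1 to 96.7 CPM in FL002.

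Of 21 partners of GATA factors and FOG-1, 3 were higher and 9 lower, with a median of -0.08. *Tcf12*, an E protein, rose by 1.69 ± 0.11 and the deacetylase gene *Hdac1* by 0.59 ± 0.12, while *Tal1* had -2.46 ± 0.32 and the repressor *Gfi1b* had -1.96 ± 0.35. Of 18 genes of a *Gata1* programme, 1 was higher and 4 lower in the committed class. *Tfrc*, the transferrin receptor, rose by 1.97 ± 0.13, and *Car2* had -3.01 ± 0.14. In the Pf4 against the progenitor class 14 of these 18 were higher and none lower by edgeR, where 2.33% of all genes were higher and 1.46% lower. The 4 hemoglobin genes are among the 14, and their UMIs in FL001 are those of the 1 cell named above. *Gfi1b* rose by 1.63 ± 0.25 there and *Tal1* by 0.997 ± 0.24, also on the log2 scale.

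Among relatives of the members, *Gata4*, *Gata5*, *Gata6* and *Zfpm2* had 0 UMIs in the kept cells of both libraries. *Trps1*, an atypical GATA family repressor, rose from the progenitor to the committed class by 0.66 ± 0.23 on the log2 scale (adjusted p = 0.0208, edgeR), from 12.6 to 19.7 CPM in FL001 and from 18.2 to 27.7 CPM in FL002.

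Genes with the most similar profile were ranked by Pearson's r of log2(CPM + 5) over the 12 sums of a gate and a library, among 6565 genes that reached 20 CPM in 1 sum. The sums share cells and depth, so r is a description. Among the genes closest to *Gata2* were *Ctdspl* (0.983) and *S100a1* (0.982), and *S100a1*, a calcium-binding protein gene, was at 27.3 and 24.9 CPM in the progenitor gates and 3.92 and 4.22 CPM in the committed gates. *Gata3* was followed by *Psmb8* (0.992), *Ptgr1* (0.988) and *Spint2* (0.988), where *Psmb8*, an immunoproteasome subunit, rose from 194.0 to 473.1 CPM in FL001. *Gata1* was followed by *Rab27b* (0.976), *Tesc* (0.976) and *Mthfd2l* (0.970), and *Zfpm1* less closely by *Cpt2* (0.901), *Ell* (0.898) and *Cramp1l* (0.887). Between the members r was -0.88 for *Gata2* and *Gata3*, 0.77 for *Gata1* and *Gata2*, -0.70 for *Gata1* and *Gata3*, 0.66 for *Gata2* and *Zfpm1*, 0.63 for *Gata1* and *Zfpm1* and -0.34 for *Gata3* and *Zfpm1*.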

How the data were processed

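The libraries were 10X Chromium 3′ libraries read on a NextSeq. The authors made the deposited count matrices with CellRanger (version not given in the sources used here) against mm9, and left every barcode in them. A barcode was kept as a cell with 1500 UMIs or more, 500 genes or more and no more than 10% of UMIs from mitochondrial genes, which gave 1788 and 4100 cells, and 5 and 12 of them fell in no class. Scrublet in scanpy 1.11.5 marked 0.391% and 0.0244% of cells, under 0.5%, so its calls were not used and doublets were kept. Summed counts were fitted with edgeR 4.0.16 (TMM, filterByExpr, library term). DESeq2 1.42.0 was an alternative. The fit was tested on simulated data. The members, gates and lists were chosen with earlier results of these data known. Genes were named by a rule: the members, 5 relatives, the 3 most similar genes for each member, and from each list the largest changes past the threshold in the committed against the progenitor class. Some genes that this rule names are not reported here. Genes reported by co-occurrence with a member were chosen after their values were seen. Annotated genes that overlap *Gata3* or *Zfpm1* held at most 9 UMIs in a library. Promoters are RefSeq sequences of GRCm38.p6, a build other than that of the labels, and no other coordinates are used. Protein sequences are not used here.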

Additional observations from a re-analysis of the deposited data

How the results depend on the processing

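Over 272 values of the 4 genes in alternative settings, 249 kept their direction and side of the threshold. Genes past the threshold, in the order pre-Cd3g against progenitor, Cd3g against pre-Cd3g, Il2ra against Cd3g, committed against Il2ra, committed against progenitor and Pf4 against progenitor, were 1302, 808, 18, 1065, 3976 and 400. With DESeq2 they were 549, 349, 2, 358, 2408 and 203. Without the library term, which is the replicate block, they were 443, 266, 0 (196 at an unadjusted p under 0.05), 389 and, for the Pf4 class, 144. With cells thinned to 1500 UMIs they were 244, 5, 221, 1044 and 33 in all but Cd3g against pre-Cd3g. Il2ra against Cd3g gave 44 with no filter on low counts, and the Pf4 class gave 991 when limited to at least 3 UMIs. Fewer counts are left after thinning, and classes were set on the thinned counts, so cells changed class. The pre-Cd3g class went from 267 to 811 cells in FL001 and from 786 to 1875 in FL002. The progenitor class went from 335 to 95 and from 602 to 194, and the committed class from 447 to 165 and from 498 to 190. The cause of the changed numbers of genes was not tested.

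*Gata1* turned direction where it was scarce. With the Pf4 class taken last, an alternative chosen after seeing the data that leaves those cells in other classes, its log2 difference was -0.72 for pre-Cd3g and -1.05 for committed against progenitor (adjusted p = 0.0243). With at most 5% mitochondrial UMIs it was -0.24 for committed against progenitor and 0.20 for Il2ra against Cd3g. *Gata2* for Cd3g against pre-Cd3g was -1.34 with DESeq2 and -1.21 without the replicate block, both short of the threshold. For Il2ra against Cd3g it was 0.19 with thinned cells. For committed against Il2ra it passed at -1.41 with no filter, -1.42 at 3000 UMIs and -1.41 with the Pf4 class last. For the Pf4 class it was 1.21 without the block and 1.39 thinned. *Gata3* for committed against Il2ra was 0.50 with DESeq2, 0.50 without the block and 0.25 thinned, and for pre-Cd3g against progenitor 1.10 thinned. For the Pf4 class it was -0.37 thinned, -1.73 with at least 3 UMIs and 1.04, past the threshold, with *Lmo2*+*Mef2c* of at least 3. *Zfpm1* passed for pre-Cd3g against progenitor at 0.87 with no filter, 0.97 at 3000 UMIs and 1.0 without the highest doublet scores, and at 0.82 in the last setting for committed against progenitor. Cells of the pre-Cd3g gate with both *Gata2* and *Gata3* were 0.102% and 0.218% when thinned.

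In each library alone *Gata1* ran from -0.79 to 1.17 for committed against progenitor and from 0.17 to 1.66 for committed against Il2ra. *Gata2* ran from -2.55 to -0.84 for Cd3g against pre-Cd3g and from -1.47 to -0.65 for committed against Il2ra. *Zfpm1* ran from -0.49 to 0.33 for Cd3g against pre-Cd3g, from -0.54 to 0.028 for Il2ra against Cd3g and from -0.041 to 0.46 for committed against Il2ra. With 2 libraries of 1 label, a library effect and a difference of culture time cannot be told apart. *Gata1* shares in the gates other than Pf4 were low, and within counting error they overlapped those of the granule cells, as did the shares of *Zfpm1*. The granule cells were only 81 in FL001 and 83 in FL002, so their intervals are wide.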
